A study of Mus musculus with 5 samples.

Results

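Keratins of simple and of stratified epithelium were examined in the colon of mouse embryos labelled HNF4 null. The set was fixed by gene name: every probe set of the array that was annotated to 1 symbol among Krt8, Krt18, Krt19, Krt20 and Krt7 (simple) or Krt4, Krt5, Krt13, Krt14 and Krt15 (stratified) was taken. This gave 15 probe sets for 10 genes, of 22626 probe sets tested and 12393 genes named by a single symbol. A further probe set was annotated to both Krt17 and Krt14 and was left out.

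RNA of fetal colon was hybridised to 1 array per embryo at stage E18.5. The 3 HNF4 null embryos (null_59, null_60 and null_426) had the genotype HNF4LoxP/LoxP with FoxA3Cre, and the 2 control embryos (CONTROL_406 and CONTROL_421) had HNF4LoxP/+ with FoxA3Cre. All 5 therefore carried the Cre transgene and at least 1 floxed allele, and the controls were heterozygous rather than wild type. The transgene is named for Foxa3, a gene of the endoderm from which gut epithelium forms, and the labels do not give the cells in which it was active. HNF4 proteins are nuclear receptors of gut, liver and kidney epithelium.

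Keratins are the intermediate filament proteins of epithelial cells. A filament forms only from a type I keratin together with a type II keratin, and the pair that is made marks the kind of epithelium. Gut columnar cells build filaments mainly from type II Krt8 with the type I keratins Krt18 and Krt19, and add Krt20 as they mature. Basal cells of stratified epithelia such as skin, oesophagus and anal canal make Krt5 with Krt14 and Krt15, and the upper layers of the moist ones make Krt4 with Krt13.

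The pieces of colon also held muscle, connective tissue and the peritoneal lining, so in each comparison fewer cells of a type and less RNA per cell cannot be told apart. Median intensities ran from 123.7 to 135.2, and correlations of log2 values between arrays, taken across probe sets, ran from 0.946 to 0.974. Control probe sets at the 3' and 5' ends of a gene give a ratio that follows RNA integrity. For Gapdh this 3'/5' ratio was 1.47 for CONTROL_421 and 0.767 to 0.895 for the rest. For actin it ran from 1.44 to 1.83, with null_60 highest and CONTROL_421 next at 1.76. Actin thus did not set CONTROL_421 apart. Of the defining colon markers, Vil1, Cdh17 and Cdx2 read 233 to 688 in every array, above the medians, while Hoxa13 and Hoxd13 read 39.9 to 118. All 5 had negative log2 differences, null minus control, with a median of -0.55, and none passed the threshold described next. At an unadjusted p under 0.05 in limma, 3 of the 5 were lower (Vil1, Cdh17 and Hoxa13), where 4.33% of all probe sets were. For 4 the null arrays were all below both controls, where 11.6% of all probe sets were. The median of the 5 was -0.44 without CONTROL_421. Across all probe sets, 28 (0.124%) had an adjusted p under 0.05 in limma, which was the threshold. Below, values of single arrays are in the order null_59, null_60, null_426, then CONTROL_406, CONTROL_421. The brightest probe set of Hnf4a read 649.8, 746, 723, 945 and 991, with no call (below), and since the deleted part of the gene is not given it does not check the labels. The number past the threshold was 8 without null_60, 18 without CONTROL_421 and 104 without CONTROL_406.

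None of the 15 keratin probe sets passed this threshold. At an unadjusted p under 0.05, limma gave 1 lower probe set, that of Krt20, where 4.33% of all probe sets were lower, and 0 higher ones, where 2.82% of all were higher. Krt20 was thus the only one of the 10 keratins whose 95% interval lay apart from 0. The 5 simple keratins had log2 differences, null minus control, from -0.87 to 0.36 with a median of 0.14 by each gene's brightest probe set. This median was -0.11 over all 7 probe sets, which count Krt8 by each of its 3, and by the brightest ones it was -0.00086 without CONTROL_421 and 0.25 without CONTROL_406. The 5 stratified keratins ran from -0.08 to 0.38 with a median of 0.07, and this was -0.033 without CONTROL_421 and 0.16 without CONTROL_406. The median over all genes was 0.02 by the same rule.

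Krt20, a type I keratin of mature intestinal surface cells, read 140.0, 147 and 97.5 in the null against 271 and 209.7 in the control embryos. All 3 null arrays were below both control arrays, with the lowest value in null_426. The mean was 128 ± 26.6 (SD, n = 3) among null embryos against 240.5 ± 43.5 (SD, n = 2) among controls, a log2 difference of -0.87 ± 0.22 (SE) or 1.83-fold lower (95% interval 1.30 to 2.55). The unadjusted p was 0.00277 and the adjusted p 0.378 in limma, so Krt20 did not pass over all probe sets. Leaving out any 1 array gave differences between -1.0 and -0.69, with adjusted p from 0.381 to 0.719. The smallest difference came without null_426.

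**Figure D1:**
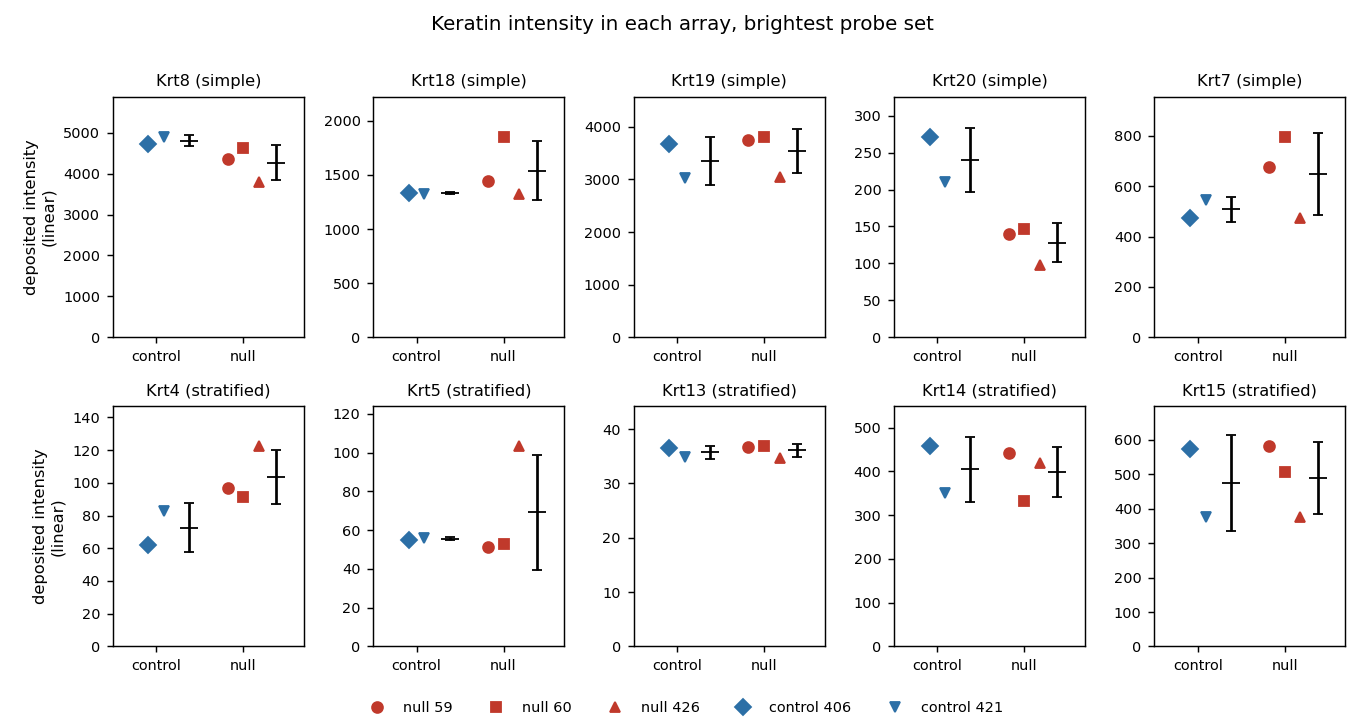
Deposited intensity (linear scale from 0, vertical axis) of the brightest probe set of each of the 10 keratins in each array; symbols are single arrays, red for HNF4 null and blue for control, and black bars are the group mean with its SD (n = 3 null and 2 control). Krt20 sits between 97.5 and 147 in null and at 209.7 and 271 in control colons. On this scale the groups of Krt8 (null lower) and Krt4 (null higher) are also apart, while those of Krt19, Krt14 and Krt15 overlap.

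The promoter of Krt20 is shown beside those of Krt8 and Krt18, the partner genes of the basic simple-epithelial filament, since Krt20 is read against that pair below. The sequences are from RefSeq (GRCm38.p6) and run from 250 bases before to 50 after the annotated start, in the direction of the gene. They lie at chr11:99438104-99438403 on the minus strand, chr15:102004293-102004592 on the minus strand and chr15:102027966-102028265 on the plus strand. Capitals mark matches to AGGTCA, the hexamer bound by many nuclear receptors, and to TATAAA, the TATA box, on either strand.
Krt20: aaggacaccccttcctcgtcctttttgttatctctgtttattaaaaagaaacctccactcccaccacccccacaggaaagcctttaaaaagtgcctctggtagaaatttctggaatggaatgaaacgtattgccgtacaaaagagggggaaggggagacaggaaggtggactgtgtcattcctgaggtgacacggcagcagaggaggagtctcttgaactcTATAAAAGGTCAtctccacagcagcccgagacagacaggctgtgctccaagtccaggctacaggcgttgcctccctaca
Krt8: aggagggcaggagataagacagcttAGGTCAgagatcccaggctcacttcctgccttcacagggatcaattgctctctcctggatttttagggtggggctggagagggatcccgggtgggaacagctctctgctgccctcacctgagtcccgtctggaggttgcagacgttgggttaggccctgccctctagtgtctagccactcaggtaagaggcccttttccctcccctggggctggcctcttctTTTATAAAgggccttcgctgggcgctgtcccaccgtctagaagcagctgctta
Krt18: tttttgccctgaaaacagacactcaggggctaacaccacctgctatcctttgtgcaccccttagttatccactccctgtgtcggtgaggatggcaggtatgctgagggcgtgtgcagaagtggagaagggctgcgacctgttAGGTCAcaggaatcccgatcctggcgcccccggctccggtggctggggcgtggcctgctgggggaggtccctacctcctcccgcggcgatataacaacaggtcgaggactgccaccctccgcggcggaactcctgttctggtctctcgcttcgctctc

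In the Krt20 sequence a TATA box at -29 to -24 is followed directly by AGGTCA at -23 to -18, counted from the annotated start. In Krt8 the hexamer lies at -225 to -220 and in Krt18 at -108 to -103. TATAAA in Krt8 lies at -1 to 5 and overlaps its own reverse match at -3 to 3, and Krt18 has no TATAAA in this window. RefSeq's table held 8 promoters for 7 of the 10 keratins. Of the 8, 6 had AGGTCA on either strand, against 16.3% of all 32851 promoters of this length. Those without it were the Krt14 window (100205981-100206280) and a Krt13 window (100120528-100120827). Both lie inside genes of the minus strand, whose annotated 5' ends are at 100207510 and 100121566. The 5' end of Krt14 was thus not covered. CAAAGTCCA, a core of the HNF4 site, was in 0 of the 8 and in 0.475% of all promoters. TATAAA was in 2 of the 8 and 13.6% of all. TTTATG, a motif of the caudal (CDX) factors, was in 1 of the 8 and 11.9% of all. That 1 was the Krt13 promoter at the gene's annotated 5' end. These are matches of letters and do not show binding.

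Krt8, the type II keratin of simple epithelia, was measured by 3 probe sets. The brightest, 1420647_a_at, read 4371, 4630.2 and 3800.2 in the null against 4717 and 4899 in the control embryos. On the deposited scale every null value was lower than both controls, but after quantile normalisation null_60 lay above CONTROL_406. The log2 difference was -0.15 (95% interval -0.54 to 0.23, adjusted p = 0.856 in limma). The other 2 probe sets differed by -0.18 and -0.11 with overlapping groups, so the 3 probe sets of Krt8 had the same direction.

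Krt18, the type I partner of Krt8, read 1446, 1852 and 1326 in the null against 1337 and 1325 in the control embryos. Its control values were nearly equal and null_60 was the highest of the 5. The difference was 0.29 (95% interval -0.10 to 0.68, adjusted p = 0.770 in limma). The groups overlapped as deposited and did not after normalisation.

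Krt19, a small type I keratin that also pairs with Krt8, read 3751, 3809 and 3056 in the null and 3672 and 3028 in the control arrays. The 2 lowest values were those of null_426 and CONTROL_421, 1 from each group. The difference was 0.14 (95% interval -0.27 to 0.55, adjusted p = 0.877 in limma) and it fell to -0.00086 without CONTROL_421.

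Krt7 is a type II keratin of several epithelia, ducts, bladder lining and mesothelium among them. It read 677, 796 and 474.3 in the null and 473.7 and 543 in the control arrays. Its values in null_59 and null_60 were above both controls, while null_426 was level with CONTROL_406. The difference was 0.36 (95% interval -0.11 to 0.83, adjusted p = 0.766 in limma), from 0.24 to 0.55 with 1 array left out.

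**Figure D2:**
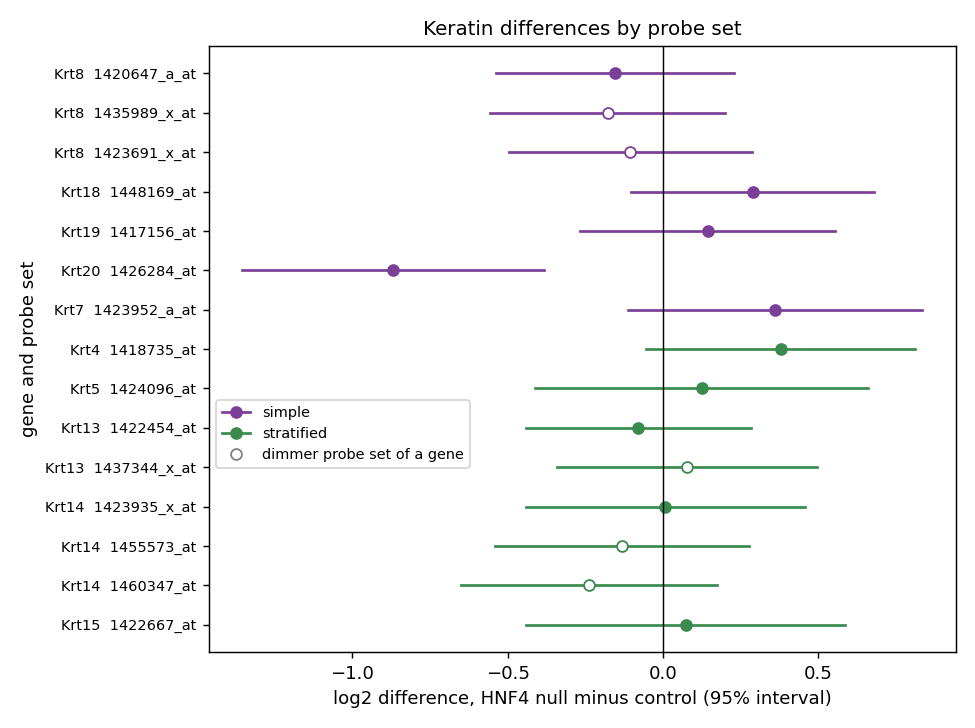
Log2 difference between HNF4 null and control colons (horizontal axis) for each of the 15 keratin probe sets (vertical axis), with its 95% interval from limma; purple is simple and green stratified, and open circles are dimmer probe sets of a gene. The interval of Krt20, around -0.87, lies apart from 0 and the other 14 include 0.

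Within each array, Krt20 was then set against its fellow simple keratins, so that a shift shared by all of them would cancel. The differences are of log2 values and are given relative to the control mean. Krt20 minus Krt8 was -0.60, -0.63 and -0.91 in the null against 0.19 and -0.19 in the control embryos. Krt20 minus Krt18 was -0.88, -1.16 and -1.43 in the null and 0.17 and -0.17 in the control arrays. Krt20 minus Krt19 was -0.93, -0.92 and -1.19 in the null arrays, and the control arrays lay within 0.0043 of their mean. For each of the 3 pairs every null value was below both controls, with mean differences of -0.71, -1.16 and -1.01. The 3 pairs share Krt20, whose own null arrays were all below both controls, so they are not 3 separate results. The share of all gene pairs with this order was not computed, and 11.6% of all probe sets had it singly.

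Krt8 minus Krt18, the balance of the type II and type I partners, was -0.29, -0.53 and -0.52 in the null and -0.019 and 0.019 in the control arrays, a mean difference of -0.44. For each of these 4 pairs the exact permutation test over the 5 arrays (two-sided, on the size of the difference in means) gave p = 0.1, also 0.1 after Benjamini-Hochberg adjustment over the 4 pairs. This is the smallest p that 3 against 2 arrays allow, so the design cannot reach 0.05. The pairs were chosen after the values were seen.

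**Figure D3:**
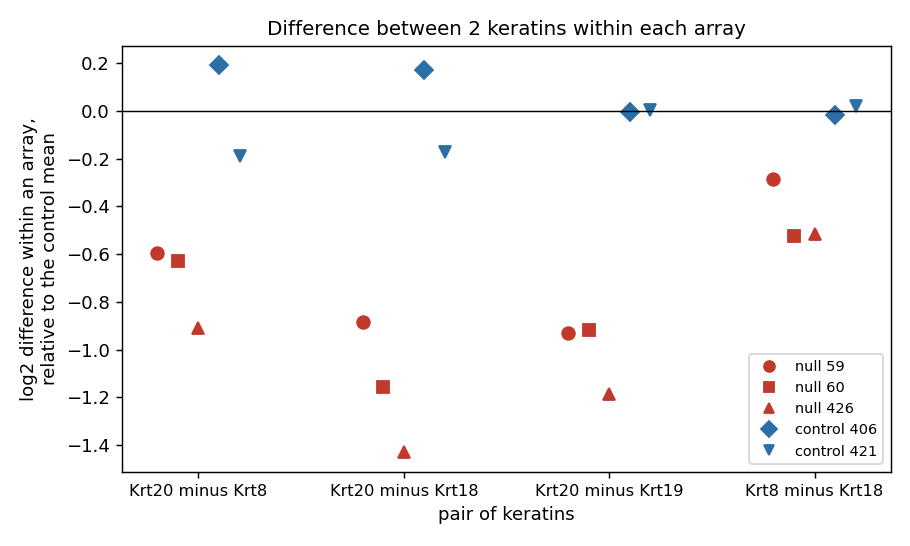
Difference of log2 values between 2 keratins within each array, relative to the mean of the 2 control arrays (vertical axis), for 4 pairs (horizontal axis); each symbol is 1 array, red for null and blue for control. For Krt20 minus Krt18 the null arrays lie between -1.43 and -0.88 and the controls at 0.17 and -0.17.

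Krt4, a type II keratin of the upper layers of moist stratified epithelia, read 96.7, 91.3 and 122 in the null against 62.0 and 83.0 in the control embryos. The 3 null values were above both controls and all 5 were below the array medians. The log2 difference was 0.38 (95% interval -0.06 to 0.81, adjusted p = 0.733 in limma), and it was 0.16 without CONTROL_406 and 0.59 without CONTROL_421.

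Krt13, the type I partner of Krt4, had a narrow range: 1422454_at read 36.7, 36.8 and 34.7 in the null and 36.5 and 34.9 in the control arrays. Its difference was -0.08 (95% interval -0.44 to 0.28) and that of the other probe set 0.08 (-0.34 to 0.50). Krt4 and Krt13 thus had no shared direction, and both were dim.

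Krt5, the type II keratin of basal cells, read 51.4, 52.7 and 103 in the null and 55.1 and 56.1 in the control arrays. Only null_426 stood out, and the other 2 null arrays were below both controls. The difference was 0.12 (95% interval -0.41 to 0.66, adjusted p = 0.918 in limma) and -0.12 without null_426.

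Krt14, the type I partner of Krt5, had 3 probe sets. The brightest, 1423935_x_at, read 442, 334 and 420.0 in the null and 458 and 352 in the control arrays, a difference of 0.0079 (95% interval -0.44 to 0.46). Probe sets with this suffix can also bind related transcripts, and the dimmer ones differed by -0.13 and -0.24. The last of these, 1460347_at, read 17.1, 28.9 and 31.8 in the null and 33.4 and 26.5 in the control arrays, which overlapped as deposited. Krt15, another type I keratin of basal cells, read 582, 508 and 376 in the null and 574 and 377 in the control arrays. Its groups spanned nearly the same range, and the difference was 0.07 (95% interval -0.44 to 0.59, adjusted p = 0.955 in limma).

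Counted by order after normalisation, the 3 null arrays lay below both controls in 2 of the 15 probe sets, those of Krt20 and 1460347_at of Krt14, where 11.6% of all probe sets did. They lay above both controls in 2, those of Krt18 and Krt4, where 12.0% of all did. By their brightest probe sets 4 of the 5 stratified keratins had a positive difference, or 2 of 5 after centring each array on its median, and each of the 5 intervals included 0.

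The array also measured 30 further keratins, chiefly of skin and hair, by probe sets of a single symbol. Of these 0 passed the threshold in limma. At an unadjusted p under 0.05, 3 were higher and 0 lower, where 2.82% and 4.33% of all probe sets were. Krt2, a type II keratin of the upper epidermis, read 58.9, 63.9 and 100.4 in the null and 32.2 and 41.1 in the control arrays, a log2 difference of 0.68 (adjusted p = 0.578). Krt80, which is made in many epithelia, read 212, 195 and 225 against 141 and 151, a difference of 0.46 (adjusted p = 0.624). Krt75, a hair follicle keratin, differed by 0.39 and the hair keratin Krt33a by -0.37. The null arrays of Krt2, Krt80 and Krt75 all lay above both controls, and those of Krt33a all lay below. Of the 30, 6 had all null arrays above and 2 below, where 12.0% and 11.6% of all probe sets did. The median of the 30 was 0.12. It was -0.0096 without null_426, 0.17 without null_60, 0.033 without CONTROL_406 and 0.17 without CONTROL_421. At an unadjusted p under 0.05 in limma, the 3 higher became 2 without null_426 and 1 without null_59, where 1 was also lower. They became 4 without null_60 and 4 with the table as deposited. Krt27, a hair follicle keratin chosen here after its values were seen, read 416 in CONTROL_421 and 87.3 to 139.6 in the other 4 arrays (log2 difference -0.75, adjusted p = 0.780), and passed in limma without CONTROL_406 (-1.78, adjusted p = 0.0301).

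Desmosomes are the junctions that anchor keratin filaments, and plakins are the linker proteins. In limma 0 of 16 measured genes of this list passed, and the median was 0.05. At an unadjusted p under 0.05, 1 was lower and 1 higher, where 4.33% and 2.82% of all probe sets were. Pkp1, a desmosome plaque protein mainly of stratified epithelia, differed by -0.75 (adjusted p = 0.690), and CONTROL_421 alone was high, at 218 against 74.5 to 82.3. Eppk1, epiplakin, a linker that binds keratin, differed by 0.41 (adjusted p = 0.699). Dst, which links keratin to hemidesmosomes, differed by -0.82 with a single high value of 801 in CONTROL_421, and Evpl, envoplakin, by -0.82 with a single low value of 12.9 in null_59. Without CONTROL_406, 2 of the 16 passed as lower, Pkp1 (-1.39, adjusted p = 0.0378) and Dst (-1.88, adjusted p = 0.0456), while without CONTROL_421 Pkp1 was at -0.11, Eppk1 at 0.22 and Dst at 0.26. Desmoplakin, Dsp, differed by -0.32 and the desmosomal cadherin gene of simple epithelia, Dsg2, by 0.07.

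Intermediate filaments outside the keratin family, nuclear lamins among them, likewise gave 0 of 13 past the threshold in limma, with a median of 0.02. At an unadjusted p under 0.05, 1 was lower, where 4.33% of all probe sets were. Nefh, the heavy neurofilament subunit of neurons, read 124, 92.6 and 86.2 in the null and 183 and 181 in the control arrays (-0.82, adjusted p = 0.353). The nuclear lamin gene Lmnb1 differed by 0.35, the light neurofilament gene Nefl by -0.33 and the muscle gene Des by 0.24.

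Genes made with keratins in stratified squamous epithelium were read as a check on Krt4, Krt5, Krt13, Krt14 and Krt15. Of 18 measured genes, 1 rose at the threshold, where 4 of all 22626 probe sets did. At an unadjusted p under 0.05 in limma, 3 were higher and 1 lower, where 2.82% and 4.33% of all probe sets were. Of the differences 9 were positive and 9 negative, with a median of 0.03. Without CONTROL_421, 1 was higher and 2 were lower at that level, and the median was 0.17. Ly6d, a membrane-anchored protein of squamous cells, read 417, 353 and 348 in the null and 159 and 142 in the control arrays (1.21, adjusted p = 0.0430), but did not pass with any 1 array left out (adjusted p 0.0680 to 0.244). Anxa8, an annexin of squamous epithelia, differed by 0.84 (adjusted p = 0.593) and Krtdap, a protein of differentiating keratinocytes, by 0.39 (adjusted p = 0.690). Tgm3, a transglutaminase that crosslinks the cell envelope, differed by -0.95 (adjusted p = 0.528). The summed intensity of 7 measured markers of such epithelium, Ly6d among them, was 1330 to 1417 in the null and 1072 and 1089 in the control arrays. Without Ly6d, the other 6 summed to 976 to 1069.5 in the null and 912 and 948 in the control arrays. Of the 7 markers, 3 had negative differences, Dsc3 (-0.15), Sfn (-0.037) and Lor (-0.0034), and 2 did with the table as deposited. All null arrays lay above both controls in 4 of the 7 and below in 0, where 12.0% and 11.6% of all probe sets did. Trp63, the regulator that defines basal cells, differed by 0.12.

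Krt20 was compared with 10 markers of differentiated colonocytes, the absorptive cells in which it is made. Of these, Aqp8 (-2.50, a water channel), Muc3 (-2.07, a membrane mucin), Cdhr5 (-1.90, a microvillus cadherin) and Mep1b (-1.53, a meprin) fell at the threshold. Their adjusted p in limma ran from 0.00654 to 0.0432, and 24 of all 22626 probe sets fell at it. When p was left unadjusted (under 0.05), 8 of 10 stood lower, where 4.33% of all probe sets did. Without null_60 the number past the threshold was 1, and without CONTROL_421 it was 2. Slc26a3 differed by -0.35 and Car4 by 0.19, both with overlapping groups, and the list ran from -2.50 to 0.19. Its median was -0.81, beside the -0.87 of Krt20. The summed intensity was 1428 to 1661 in the null and 3277 and 3763 in the control arrays. The 5 defining colon markers, with their median of -0.55, summed to 954 to 1369.7 in the null and 1857 and 1728 in the control arrays. The part of either list's cells in the Krt20 difference was not tested.

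Markers of colon epithelium as a whole differed less, with a median of -0.08 over 15 genes. In limma 0 passed, and an unadjusted p under 0.05 was found for 5, all lower, and for 3 without CONTROL_421. Over all probe sets, 4.33% were lower at that level. The summed intensity of the 15 was 11992 to 14897 in the null and 17088 and 14869 in the control arrays. Epcam, an adhesion protein on every gut epithelial cell, read 1572, 1619 and 1259 in the null and 2342 and 2565 in the control arrays (-0.66, adjusted p = 0.387), whereas the claudin genes Cldn3 and Cldn7 differed by 0.06 and 0.01. Cdh17, an intestinal cadherin, differed by -0.86 (adjusted p = 0.564), villin, Vil1, by -0.74 (adjusted p = 0.493) and the protease inhibitor gene Spint1 by -0.68 (adjusted p = 0.615). The number of negative differences was 9 of 15, 12 with the table as deposited and 13 after median centring. The list ran from -0.86 for Cdh17 to 0.48 for Cldn4. Krt8, Krt18, Krt19 and Krt7 lay within this wide range, and Krt20 (-0.87) lay next to Cdh17, so the list does not set the keratins apart.

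Krt7, Krt8, Krt18 and Krt19 are also made by mesothelium, the lining of the peritoneum. All 5 measured mesothelium markers had positive differences, with a median of 0.37, and without CONTROL_421 this was 3 of 5 with a median of 0.15. Wt1, a transcription factor of that lining, read 89.5, 87.3 and 83.8 in the null and 65.3 and 46.8 in the control arrays (0.44, adjusted p = 0.651), and Msln, mesothelin, differed by 0.38, the retinoic acid enzyme gene Aldh1a2 by 0.37 and Upk3b by 0.20. Without CONTROL_421 Msln was at 0.15 and Upk3b at -0.042, and without CONTROL_406 they were at 0.61 and 0.44. Their summed intensity was 960 to 1360 in the null and 861 and 917 in the control arrays. For urothelium, the bladder lining that makes Krt7, the uroplakin genes Upk3a, Upk1a and Upk2 differed by -0.43, 0.33 and 0.11 and Psca by 0.27 (Upk1a by 0.027 without CONTROL_421 and Psca by 0.071 without CONTROL_406), with a median of 0.11 over 5 genes and a summed intensity of 876 to 939 against 803 and 810.3. Smooth muscle genes were positive in 8 of 8, or 7 of 8 after median centring, with a median of 0.22 that was 0.06 without CONTROL_421 and 0.41 without CONTROL_406. Tagln differed by 0.56, Myh11 by 0.57 and Myocd by 0.39. In limma 0 of 8 passed, with 3 higher at an unadjusted p under 0.05, where 2.82% of all probe sets were. Without CONTROL_421 this was 0 of 8, with Tagln at 0.25, Myh11 at 0.22 and Myocd at 0.33, and without CONTROL_406 Tagln was at 0.86 and Myh11 at 0.92. Their summed intensity was 15041 to 16595 in the null and 15445 and 12521 in the control arrays. The part of these cell types in the keratin values was not tested.

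**Figure D4:**
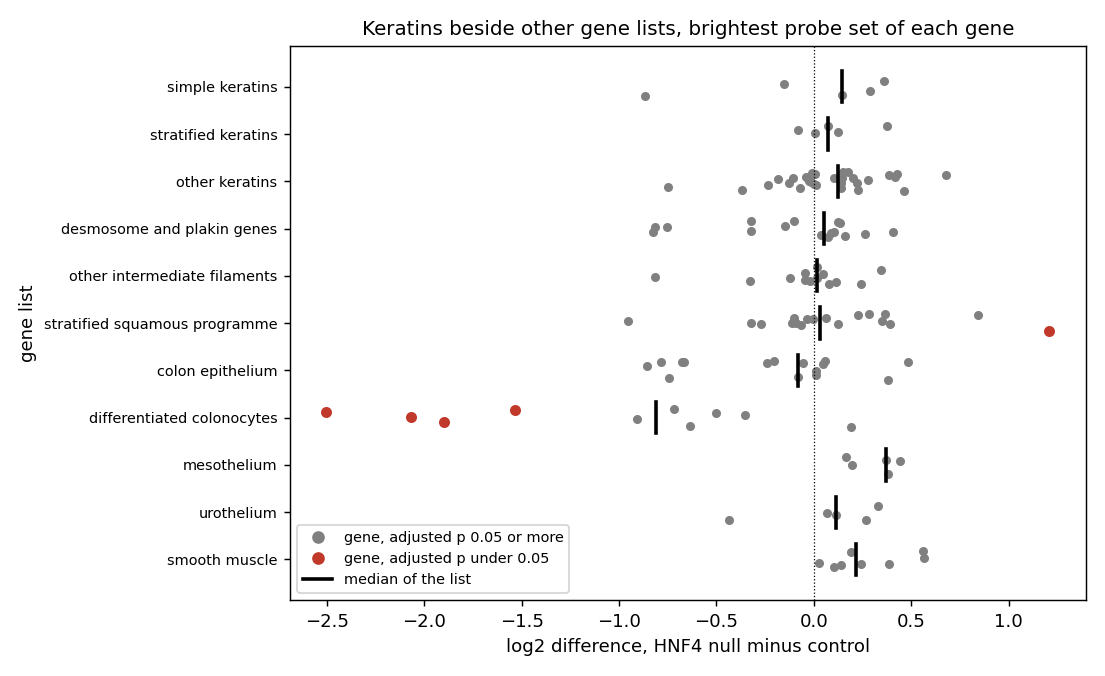
Log2 difference between HNF4 null and control colons (horizontal axis) of each gene, by its brightest probe set, in the keratin classes and the other lists (vertical axis); red points passed the adjusted threshold, gray ones did not, and black bars are medians. Krt20, at -0.87, stands apart from the other 4 simple keratins (-0.15 to 0.36) and near the colonocyte median of -0.81. The colonocyte genes themselves run from -2.50 to 0.19.

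Regulators known to act on keratin genes gave 0 of 12 past the threshold in limma. At an unadjusted p under 0.05, 2 were lower, where 4.33% of all probe sets were. Cdx1, a caudal factor of the intestine, differed by -0.78 (adjusted p = 0.615) and Klf4, a factor of mature surface cells, by -0.65 (adjusted p = 0.653). Hnf4a differed by -0.35 (adjusted p = 0.719) by its brightest probe set, and Tfap2a, a factor of stratified epithelium, by 0.36 (adjusted p = 0.728). Without CONTROL_421, 0 of the 12 had an unadjusted p under 0.05, with Cdx1 at -0.53 and Klf4 at -0.46 and a median that went from -0.09 to 0.013.

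By the rule for likeness of pattern, the 5 genes nearest to Krt20 were sought by root mean square distance of centred log2 values over the 5 arrays. They were Slc35c1, a GDP-fucose transporter gene (distance 0.073), Vil1, which bundles actin in microvilli (0.075), Cth, an enzyme of cysteine synthesis (0.080), Tax1bp1, an autophagy receptor gene (0.084) and Ctss, a cathepsin (0.10). Their log2 differences ran from -0.94 to -0.74, and each had, like Krt20, its lowest value in null_426. With 5 arrays, many genes can lie this near.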

How the data were processed

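Total RNA of 5 fetal colons was labelled with biotin and hybridised by the array maker's standard protocol, per the labels. The deposited table held 1 linear intensity per probe set and array. The summarising software, scaling and background step are not given in the sources used here, and some values lay below 0. Of 22690 probe sets, 64 array-maker controls were left out. A platform annotation of 2016 gave 20380 of the others 1 gene symbol, 691 several and 1555 none. The files carry no detection calls, and the number of arrays limits the precision.

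Values below 0 were set to 0, taken as log2(intensity + 16) and quantile normalised, because array medians spread over 0.114 on that scale. A fold change on this scale understates that of dim genes. HNF4 null was compared with control in limma 3.58.1 under R 4.3.3 (two-sided moderated test from lmFit and eBayes without covariates, 9.33 total degrees of freedom), with Benjamini-Hochberg adjustment over 22626 probe sets. The p-values rest on the spread between these embryos, moderated by a variance pooled over all probe sets. Of the 9.33 degrees of freedom, 3 were residual. Intensities with an SD are as deposited. The code was checked on simulated arrays.

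All keratins were named by every probe set, and from each other list the 4 genes of smallest unadjusted p and any past the threshold, by the brightest probe set (highest mean log2). Other genes named (Dsp, Dsg2, Trp63, Dsc3, Sfn, Lor, Cldn3, Cldn7, Slc26a3, Car4 and Krt27) were chosen after their values were seen. Nearest patterns were sought for keratins with an unadjusted p under 0.05. The keratins and lists were chosen with earlier results of these data known. Promoters came from RefSeq (GRCm38.p6). The alternatives covered scaling, pseudocounts, dim probe sets, variance prior, array weights, gene means and each array left out. With 1 control array left, its spread was taken to equal that of the null arrays.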

Additional observations from a re-analysis of the deposited data

How the results depend on the processing

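The number of keratin probe sets past the threshold was 0 under all 13 alternatives run on it, and the adjusted p of Krt20 ran from 0.240 to 0.719 with its direction kept in each. The number past it over all probe sets was 28, and it was 17 when dim probe sets were removed, 45 with array weights, 14 when the pseudocount was 1 and 8 to 104 with 1 array left out. The median of the simple keratins (0.14) moved by less than its spread between arrays (SD 0.17) in all 14 alternatives. That spread is larger than the median itself, which ran from -0.00086 without CONTROL_421 to 0.25 without CONTROL_406. The median was -0.11 over all 7 simple probe sets. The median of the stratified ones (0.07) moved by more than its spread between arrays (SD 0.056) in 6 of 14 alternatives. It became -0.00089 with median centring and -0.071 to 0.16 with 1 array left out.

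Of 189 values of single keratin probe sets under alternatives, 174 kept their direction and 15 changed it, none of them past the threshold on either side. With the table as deposited these were Krt13 1422454_at (0.010) and Krt14 1423935_x_at (-0.019), with median centring Krt15 (-0.00089) and Krt14 1423935_x_at (-0.065), and with array weights Krt5 (-0.036) and Krt13 1437344_x_at (-0.033). With 1 array left out, Krt15 ran from -0.19 to 0.34, Krt14 1423935_x_at from -0.14 to 0.16, Krt5 from -0.12 to 0.25, Krt13 1437344_x_at from -0.055 to 0.16, Krt19 from -0.00086 to 0.29 and Krt8 1423691_x_at from -0.25 to 0.036. The cause was not tested. Removal of dim probe sets took out Krt4, Krt5, Krt13 and the 2 dimmer probe sets of Krt14. No paired analysis was possible because the embryos of the groups share no numbers. Intensities of the stratified keratins Krt4, Krt5 and Krt13 below the array medians limit what a fold change can show.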
